A study of Mus musculus with 6 samples.

Results

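Collagen chain genes were examined in whole mouse cochleae that lacked Fabp7, the brain-type fatty acid binding protein, and in cochleae that had it. A collagen chain gene was any gene whose symbol in the array's annotation had the form Col, a number, the letter a and a number. Of 44 such genes, 37 had a probe whose signal exceeded the array's 40th percentile in 3 or more of the 6 arrays, and where several probes passed, the brightest stood for the gene. These 37 are among 27189 features tested, of which 16143 were named genes. The 3 knockout samples were Fabp7 (-/-) and the 3 wild-type samples Fabp7 (+/+). All came from females aged 7 months, with no treatment named in the labels. Each sample pooled 4 cochleae from 2 mice, so each group holds 12 cochleae of 6 mice, and the mice of a pool cannot be told apart. The dissection kept the bony otic capsule and left out the vestibular organs, so bone, cartilage remnants, lateral wall, organ of Corti, nerve and vessels were measured together. In such bulk tissue, fewer cells of a type and less RNA per cell cannot be told apart.

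Collagens are secreted or membrane-bound proteins whose alpha chains wind around each other into a rope-like helix built on glycine at regular steps. Fibrillar chains pack into the banded fibres of bone, cartilage and ligament, type IV chains form the sheet-like network of basement membranes, and the FACIT chains (fibril-associated collagens with interrupted helices) coat fibres and link them to their surroundings. In the inner ear, types II, IX and XI are part of the tectorial membrane and the spiral ligament, type I is the main protein of otic capsule bone, and type IV lines the strial vessels and the basilar membrane. In humans, variants in COL2A1, COL11A1, COL11A2 and type IX genes cause Stickler syndrome, and variants in COL4A3, COL4A4 or COL4A5 cause Alport syndrome, both with hearing loss.

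The signal of Fabp7 itself was checked first. Its raw signals were 10.9, 3.75 and 3.43 in knockout, all under the 40th percentile of their arrays, against 2674, 1554 and 1860 in wild type. With the knockout arrays set at their 40th percentile, Fabp7 was at least 95.2-fold lower in knockout (limma adjusted p = 0.0610 on the signals as measured). Its groups did not overlap, in the direction of the genotype labels on all 6 arrays. Pairs of arrays correlated at 0.988 to 0.994 across the features tested, and the 75th percentile of the raw signal, to which each array was scaled, ran from 581 to 677. Of 12 cochlear marker genes 11 passed the filter, among them Otos and Coch, proteins of the spiral ligament, and Ocm and Slc26a5, proteins of hair cells.

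No collagen chain passed the adjusted threshold. By limma, with Benjamini-Hochberg adjustment over all 27189 features, 0 of 37 chains were called at an adjusted p under 0.05, and 0% of all features were. The lowest adjusted p of a chain was 0.694. At an unadjusted p under 0.05 there were 3 chains lower in knockout, Col4a1, Col6a2 and Col2a1, and 1 higher, Col4a4. Over all features, 5.7% reached that level, 2.66% on the lower side and 3.04% on the higher side, so some chains at this level are to be found at the background rate too. The estimated changes were small and mostly on 1 side: 29 chains lay below 0 and 8 above, where 39.3% of all features lay below 0 and 60.7% above. The change was under 0.5 in size for 36 of 37 chains, all but Col13a1, and for 96.2% of all features. Their median log2 change was −0.09, against 0.03 for all features, a difference of −0.13. The groups did not overlap for 6 chains lower in knockout and 1 higher, beside 4.27% of all features for the lower side, 8.08% for the higher side and 12.4% for either. The chains were measured on the same 6 arrays and are not independent of each other.

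The median change leaned on single arrays. Without knockout array 1 it was −0.05 with 25 chains below 0, and with array weights it was −0.06 with 27 below 0. The median signal of the 37 chains, each centred on its own mean over 6 arrays, was −0.10, −0.02 and 0.00 on knockout arrays 1 to 3, against 0.06, 0.06 and 0.02 on wild-type arrays 1 to 3. Knockout array 1 was thus the lowest, and the other two knockout arrays lay close to wild-type array 3.

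**Figure D1:**
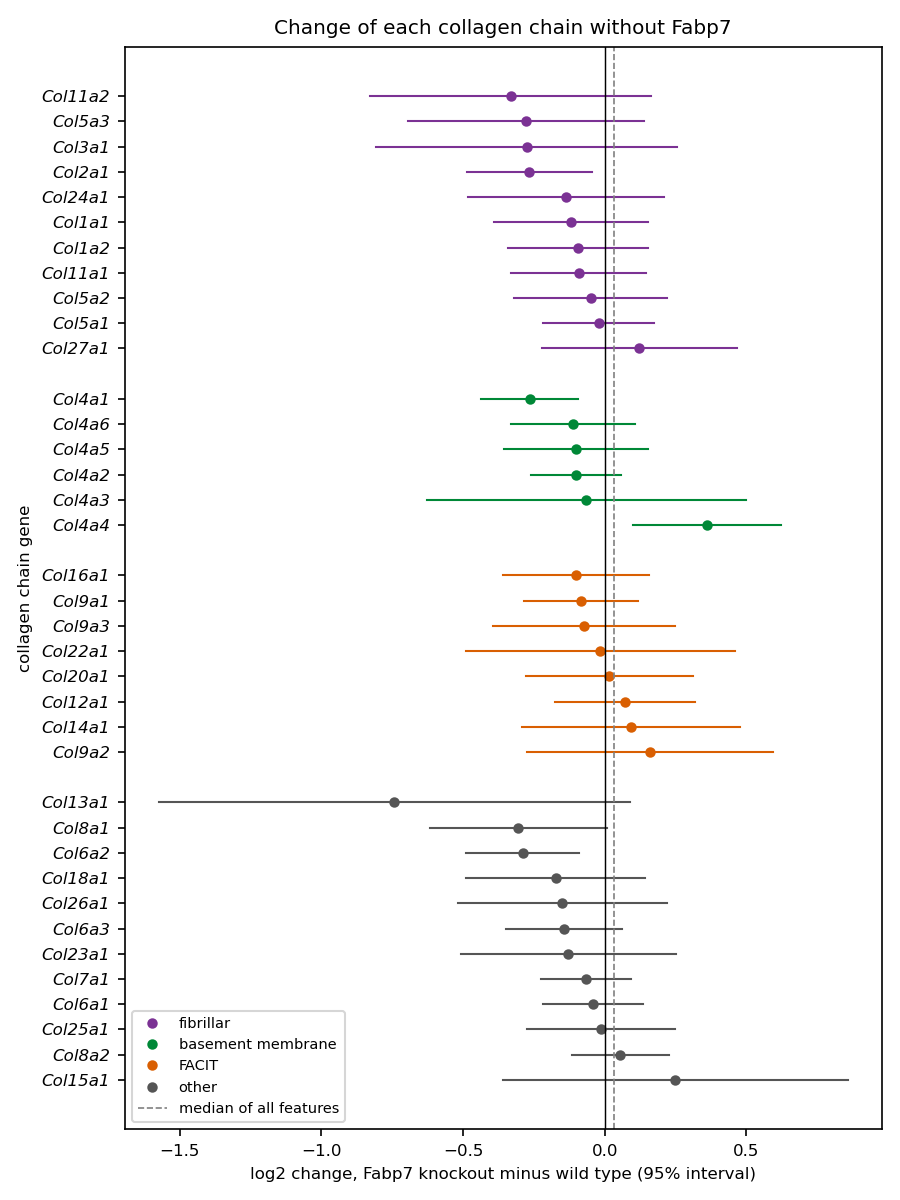
Log2 change of each of the 37 collagen chains, Fabp7 knockout minus wild type (horizontal axis), with its 95% interval from limma, grouped by class. Points left of the solid line at 0 were lower in knockout. The dashed line marks the median of all features, 0.03. The intervals of Col4a1, Col2a1, Col6a2 and Col4a4 leave out 0.

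The intervals bound most chains to small changes. The median half-width of the 95% interval was 0.27 on the log2 scale for the chains and 0.28 for all features. For 26 of 37 chains the whole interval lay between −0.5 and 0.5, against 64.6% of all features. For 36 it lay between −1 and 1, against 91.7%, Col13a1 being the exception.

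**Figure D2:**
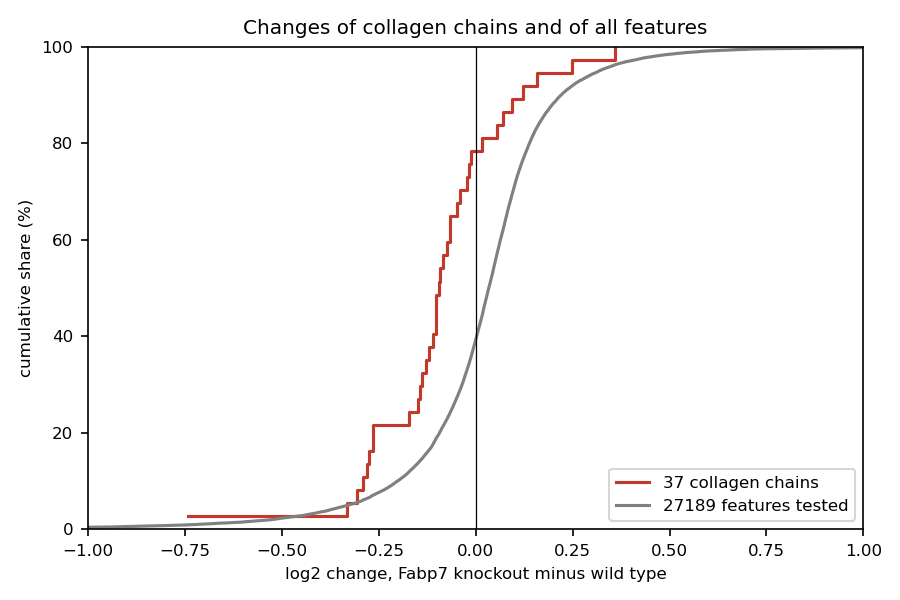
Cumulative share (vertical axis, percent) of the 37 collagen chains and of all 27189 features below a given log2 change, Fabp7 knockout minus wild type (horizontal axis, cut at −1 and 1). The curve of the chains lies left of that of all features over most of the range, with medians of −0.09 and 0.03.

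Among the fibrillar chains, 10 of 11 lay below 0, with a median log2 change of −0.12, 0 past the adjusted threshold by limma and 1 at an unadjusted p under 0.05. Type I collagen, the fibre of bone, is a mix of the chains of Col1a1 and Col1a2. The scaled signal, the raw signal over the 75th percentile of its array, of Col1a1 was 43.3, 42.6 and 39.3 in knockout, against 39.4, 46.3 and 50.9 in wild type. For Col1a2 it was 157, 149.8 and 136 in knockout, against 142, 162 and 169 in wild type. Both groups overlapped in both chains, with wild-type array 1 at the level of the knockouts. The log2 changes were −0.12 ± 0.11 and −0.09 ± 0.10 (SE), so the type I chains were close to each other in size and direction.

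The lowest unadjusted p of the fibrillar class was that of a cartilage collagen. Col2a1 encodes the type II chain of cartilage fibres, which is also the main collagen of the tectorial membrane. Its scaled signal was 24.8, 26.0 and 23.6 in knockout, against 27.6, 32.9 and 29.0 in wild type. All 3 knockout arrays lay below all 3 wild-type arrays, and the log2 change was −0.27 ± 0.09 (SE; limma adjusted p = 0.809, unadjusted p = 0.0262), a knockout to wild-type ratio of 0.832. Leaving out single arrays moved the change between −0.32 and −0.19 and the unadjusted p between 0.0178 and 0.0798.

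Type XI chains nucleate the thin fibres of cartilage. Col11a2 had scaled signals of 6.55, 8.95 and 10.9 in knockout, against 10.2, 12.4 and 10.1 in wild type. Knockout array 3 reached the wild-type range, and the log2 change of −0.33 ± 0.20 (SE) became −0.13 without knockout array 1. Col11a1 was at 1.00, 1.11 and 0.988 in knockout, against 0.988, 1.18 and 1.15 in wild type, a log2 change of −0.09 ± 0.10 (SE). Its groups overlapped as well.

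The remaining fibrillar chains overlapped between the groups. Col3a1, the type III chain of distensible tissue and vessel walls, was at 2.52, 2.32 and 2.00 in knockout, against 3.40, 3.06 and 1.99 in wild type. Wild-type array 3 was as low as the lowest knockout, and the log2 change of −0.28 ± 0.22 (SE) became −0.51 without that array and −0.12 without wild-type array 1. Type V chains limit the width of type I fibres. Of these, Col5a3 was at 1.09, 1.27 and 1.33 in knockout, against 1.47, 1.85 and 1.22 in wild type, a log2 change of −0.28 ± 0.17 (SE) that became −0.12 without wild-type array 2. Its partners stayed near 0, with Col5a1 at −0.02 ± 0.08 and Col5a2 at −0.05 ± 0.11. The more recently described fibrillar chains Col24a1 and Col27a1 were at −0.14 ± 0.14 and 0.12 ± 0.14.

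FACIT chains were split evenly, 4 below 0 and 4 above, with a median log2 change of 0.00, 0 past the adjusted threshold by limma and 0 at an unadjusted p under 0.05. Type IX collagen decorates type II fibres, and its chains come from Col9a1, Col9a2 and Col9a3. Col9a1 had scaled signals of 3.26, 3.53 and 3.75 in knockout, against 3.79, 3.84 and 3.53 in wild type. Col9a2 was at 18.8, 24.5 and 29.5 in knockout, against 23.3, 19.3 and 21.7 in wild type. Col9a3 was at 0.234, 0.258 and 0.273 in knockout, against 0.314, 0.264 and 0.232 in wild type. In each of the type IX chains knockout array 1 was the lowest knockout and array 3 the highest. The log2 changes were −0.08 ± 0.08, 0.16 ± 0.18 and −0.07 ± 0.13 (SE), all with overlapping groups.

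Other FACIT chains lay close to 0. Col12a1 and Col14a1, which coat type I fibres in ligament and tendon, were at 0.07 ± 0.10 and 0.09 ± 0.16, Col16a1 at −0.10 ± 0.11, Col20a1 at 0.02 ± 0.12 and Col22a1, a chain of tissue junctions, at −0.02 ± 0.19. Col22a1 shows how far 1 array can move a chain. It was at 2.65, 2.79 and 2.68 in knockout, against 2.01, 3.26 and 3.13 in wild type, and without wild-type array 1 its log2 change was −0.24. Col14a1 held a similar case, with 1.32, 1.41 and 1.30 in knockout against 1.58, 1.21 and 1.05 in wild type.

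The basement membrane class, the type IV chains, held the lowest unadjusted p of all collagen chains and the only higher chain at that level. Of 6 chains 5 lay below 0, with a median log2 change of −0.10 and 0 past the adjusted threshold by limma. At an unadjusted p under 0.05 there was 1 lower and 1 higher. Col4a1 and Col4a2 make the network found in nearly all basement membranes. Their genes lie head to head and are read in opposite directions from a shared promoter. The windows from 250 bases before to 50 bases after each start overlap by 78 bases. They are shown because the estimates of these partner chains differed in size, though with overlapping groups when compared within arrays. Shown with them is the promoter of Col4a4, the chain estimated higher at an unadjusted p under 0.05. A link between these sequences and the changes was not tested. Sequences are from RefSeq for GRCm38.p6, on the strand of each gene, Col4a1 at chr8:11312777-11313076 (minus), Col4a2 at chr8:11312555-11312854 (plus) and Col4a4 at chr1:82586800-82587099 (minus). Capitals mark CCAAT boxes and GGGCGG boxes (the letters searched on both strands, so that ATTGG and CCGCCC are marked too).
Col4a1: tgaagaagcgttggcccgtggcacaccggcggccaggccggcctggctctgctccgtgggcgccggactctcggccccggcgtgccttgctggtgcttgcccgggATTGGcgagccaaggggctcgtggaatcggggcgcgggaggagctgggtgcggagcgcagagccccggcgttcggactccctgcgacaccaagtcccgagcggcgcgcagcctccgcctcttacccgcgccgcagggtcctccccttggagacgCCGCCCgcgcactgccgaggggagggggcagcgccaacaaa
Col4a2: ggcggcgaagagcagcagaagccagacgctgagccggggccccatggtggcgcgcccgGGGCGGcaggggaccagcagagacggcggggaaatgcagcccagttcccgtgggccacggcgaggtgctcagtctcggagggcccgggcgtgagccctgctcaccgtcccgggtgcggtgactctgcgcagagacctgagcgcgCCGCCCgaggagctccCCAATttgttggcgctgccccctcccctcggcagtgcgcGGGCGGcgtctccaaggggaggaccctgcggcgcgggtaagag
Col4a4: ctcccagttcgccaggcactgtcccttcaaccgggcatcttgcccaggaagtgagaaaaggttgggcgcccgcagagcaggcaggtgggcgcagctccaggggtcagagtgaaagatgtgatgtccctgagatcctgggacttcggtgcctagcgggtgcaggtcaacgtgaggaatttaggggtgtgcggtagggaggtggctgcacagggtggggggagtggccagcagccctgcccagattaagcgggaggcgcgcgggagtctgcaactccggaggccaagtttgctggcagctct
The Col4a1 window held 1 CCAAT and 1 GGGCGG match, the Col4a2 window 1 and 3, and the Col4a4 window 0 of either. The GGGCGG match of Col4a1 lies in the bases shared with Col4a2 and is also 1 of the 3 counted there. None of these windows held TATAAA. Of all 32851 promoter windows in the table, 37.4% held CCAAT, 35.7% GGGCGG and 13.6% TATAAA on either strand. Of the 37 chains, 28 were in the table with 31 windows, of which 11 held CCAAT, 20 GGGCGG and 3 TATAAA.

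Col4a1 had scaled signals of 2.05, 1.85 and 1.94 in knockout, against 2.26, 2.38 and 2.37 in wild type. The groups did not overlap, and the replicates were tight on both sides. The log2 change was −0.27 ± 0.07 (SE; limma adjusted p = 0.694, unadjusted p = 0.00922), with a 95% interval from −0.44 to −0.09. It stayed between −0.30 and −0.23 with single arrays left out, at an unadjusted p of 0.00972 to 0.0391. Over all settings tried its adjusted p ran between 0.22 and 0.999. Of 8 vessel markers, the endothelial Tek and Pecam1 were at −0.28 ± 0.08 and −0.22 ± 0.09. The endothelial markers Cdh5 and Kdr were at −0.03 ± 0.06 and −0.05 ± 0.08. The median of the list was −0.04, with 7 below 0 and 1 above. The part of these markers in the value of Col4a1 was not tested.

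Col4a2, read from the same promoter region, was at 2.06, 2.12 and 2.13 in knockout, against 2.30, 2.32 and 2.16 in wild type. The groups again did not overlap, but the gap between the highest knockout and the lowest wild-type array was narrow. Its log2 change was −0.10 ± 0.06 (SE; limma adjusted p = 0.866), with an interval from −0.26 to 0.06. The difference between the changes of Col4a1 and Col4a2, taken within each array, was −0.16 with overlapping groups (two-sided exact permutation p = 0.2).

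Col4a3, Col4a4 and Col4a5 make the network of specialised basement membranes, the one affected in Alport syndrome. Col4a4 had scaled signals of 1.45, 1.45 and 1.62 in knockout, against 1.22, 1.03 and 1.28 in wild type. Every knockout array lay above every wild-type array, with a log2 change of 0.36 ± 0.11 (SE; limma adjusted p = 0.769, unadjusted p = 0.0150), a ratio of 1.28. The change kept its sign with each array left out, between 0.27 and 0.43. The 3 probes of Col4a4 past the filter differed, however. A probe with a mean raw signal of 67.5, against 848 for the brightest, gave a log2 change of −0.21 ± 0.13, and the dimmest, at 21.0, gave 0.27 ± 0.23. With the mean of all 3 probes the change of Col4a4 was 0.14.

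The estimates of the partners of Col4a4 lay below 0. Within arrays, the change of Col4a3 minus that of Col4a4 was −0.43 with overlapping groups (two-sided exact permutation p = 0.3). Col4a3, read from the opposite strand next to Col4a4, was at 0.0763, 0.108 and 0.146 in knockout, against 0.108, 0.113 and 0.113 in wild type. The knockout arrays spread to both sides of the wild-type arrays, and the log2 change was −0.07 ± 0.23 (SE). Col4a5 was at 0.664, 0.811 and 0.793 in knockout, against 0.868, 0.781 and 0.780 in wild type, and Col4a6 at 0.295, 0.324 and 0.326, against 0.359, 0.354 and 0.309. Their log2 changes were −0.10 ± 0.10 and −0.11 ± 0.09 (SE), and in both chains knockout array 1 was the lowest.

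**Figure D3:**
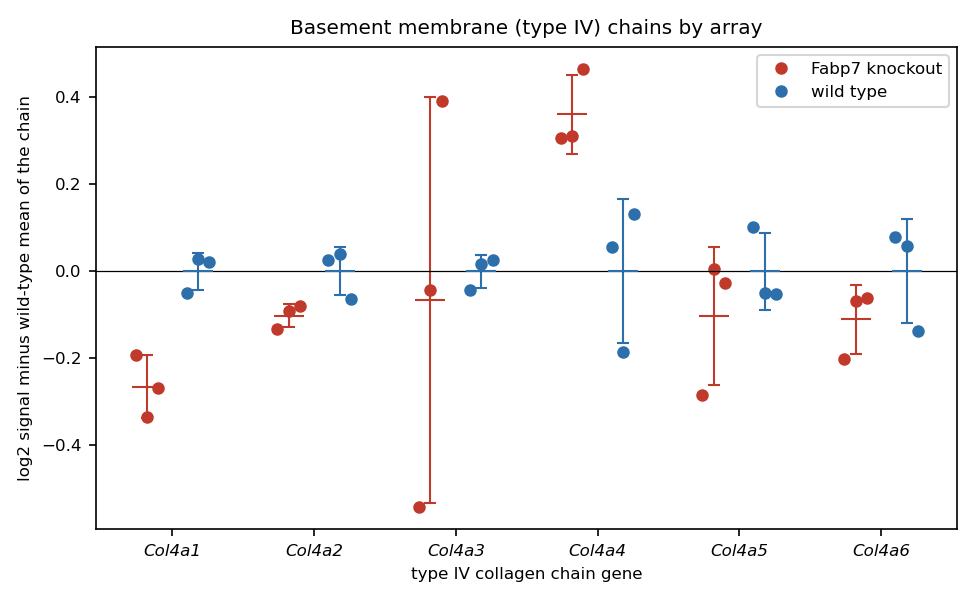
Log2 signal of each type IV chain on each array, minus the wild-type mean of that chain (vertical axis), with 3 Fabp7 knockout arrays (red, left of each pair) and 3 wild-type arrays (blue, right), in replicate order. Bars are the mean ± SD of each group. The knockout points of Col4a1 and Col4a2 lie below all wild-type points and those of Col4a4 above them, while those of Col4a3 spread widely.

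Of the remaining chains, 10 of 12 lay below 0, with a median log2 change of −0.14, 0 past the adjusted threshold by limma and 1 at an unadjusted p under 0.05. Type VI collagen forms beaded filaments around cells, and its main chains come from Col6a1, Col6a2 and Col6a3. Col6a2 had scaled signals of 1.02, 1.07 and 1.15 in knockout, against 1.30, 1.40 and 1.26 in wild type. The groups did not overlap, and the log2 change was −0.29 ± 0.08 (SE; limma adjusted p = 0.738, unadjusted p = 0.0123), a ratio of 0.818. Its second probe, with a mean raw signal of 66.6 against 768, gave −0.01 ± 0.12, and with the mean of both the change was −0.15.

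Col6a3 was at 1.21, 1.22 and 1.13 in knockout, against 1.29, 1.42 and 1.22 in wild type. Its groups lay next to each other without overlapping, at a log2 change of −0.14 ± 0.08 (SE; limma adjusted p = 0.866). Col6a1, the neighbour of Col6a2 on its chromosome, was at 6.92, 7.12 and 6.46 in knockout, against 6.76, 7.30 and 7.03 in wild type, with a log2 change of −0.04 ± 0.07. The type VI estimates thus shared a sign, and their sizes depended on the probe of Col6a2. With the mean of its probes Col6a2 was at −0.15, close to Col6a3. By the brightest probes, the change of Col6a2 minus that of Col6a3 was −0.15 with overlapping groups (two-sided exact permutation p = 0.3).

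Type VIII chains form hexagonal sheets under the corneal endothelium and are also made in vessel walls. Col8a1 was at 0.374, 0.297 and 0.359 in knockout, against 0.397, 0.481 and 0.395 in wild type. All knockout arrays were lower, with a log2 change of −0.31 ± 0.13 (SE; limma adjusted p = 0.866, unadjusted p = 0.0539). Its partner Col8a2 was at 1.97, 1.95 and 1.80 in knockout, against 1.87, 1.86 and 1.77 in wild type, a log2 change of 0.05 ± 0.07.

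Col13a1, a transmembrane collagen of cell contacts and of the nerve-muscle junction, had the largest estimated change of the 37 and also the widest interval. It was at 0.0511, 0.0729 and 0.132 in knockout, against 0.134, 0.143 and 0.120 in wild type. Knockout array 3 was at the wild-type level, so the groups overlapped. The log2 change was −0.74 ± 0.34 (SE; limma adjusted p = 0.866), with an interval from −1.57 to 0.09. It was −0.43 without knockout array 1 and −1.11 without knockout array 3, so single arrays moved its size. With 50 added to each raw signal it was −0.34. Its wild-type signals lay at percentiles 54.4 to 56.3 of the arrays. Col13a1, Col6a1, Col6a2 and Col18a1 lie within 20 Mb of Fabp7 on chromosome 10. All 4 estimates were negative, as were 29 of the 37 chains. The part of this position in their values was not tested.

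Multiplexins are basement membrane zone collagens that carry sugar chains. Col18a1, whose end fragment is endostatin, was at 1.27, 1.20 and 1.29 in knockout, against 1.68, 1.21 and 1.38 in wild type, with a log2 change of −0.17 ± 0.13. Col15a1, whose probe exceeded the 40th percentile on 4 of 6 arrays, was at 0.25 ± 0.25. With signals raised to that percentile, Col15a1 was at 0.02. The anchoring fibril chain Col7a1 was at −0.07 ± 0.06, and the transmembrane chains Col23a1 and Col25a1 at −0.13 ± 0.15 and −0.01 ± 0.11. Col26a1 was at −0.15 ± 0.15.

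**Figure D4:**
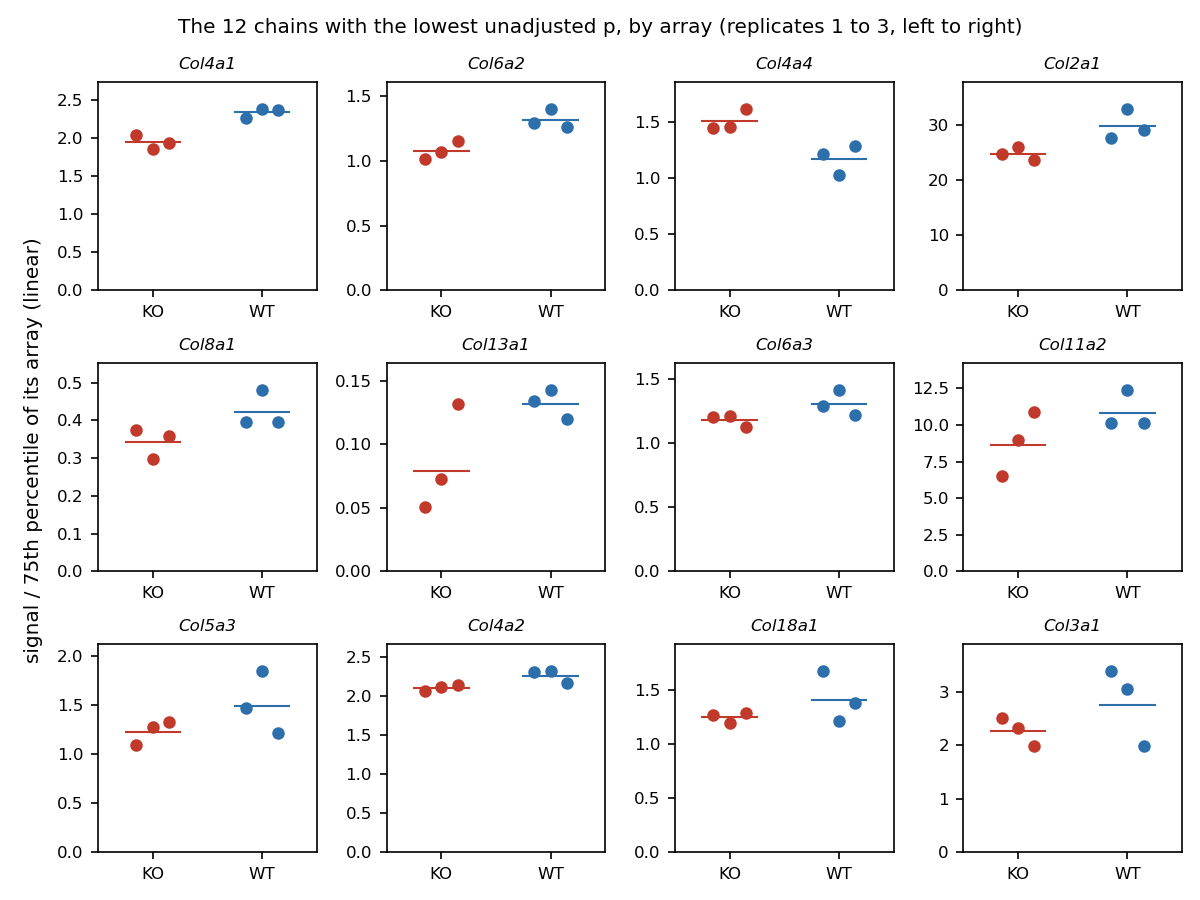
Scaled signal, raw signal over the 75th percentile of its array on a linear axis from 0, of the 12 chains with the lowest unadjusted p, in 3 Fabp7 knockout (KO, red, left) and 3 wild-type (WT, blue, right) arrays. Lines are the geometric mean of each group. In Col4a1, Col6a2, Col2a1, Col8a1, Col6a3 and Col4a2 all knockout points lie below all wild-type points, in Col4a4 above them, and in the other panels they overlap.

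Chains outside the rule were near the floor of the arrays. The 7 genes without a passing probe were Col6a4, Col6a5, Col6a6, Col10a1, Col17a1, Col19a1 and Col28a1. Just inside the threshold stood Col15a1, with raw signals of 23.9, 20.3 and 22.4 in knockout and 15.7, 18.9 and 29.9 in wild type. Just outside stood Col6a4, with 1 probe above the level on 1 array, at a raw signal of 39.0 on wild-type array 1 and at 3.11 to 3.45 on the others. Col10a1, the chain of hypertrophic cartilage, did not exceed 14.4 on any array. A signal at this level does not show that a gene is silent.

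Partner chains, which assemble into the same molecule, were compared within arrays in 13 pairs chosen after the values were seen. The groups did not overlap in 3 pairs, where 12.4% of single features did not overlap. Each of these pairs holds a chain whose own groups did not overlap (Col4a4, Col6a2 or Col8a1), so they add no independent evidence. The change of Col4a4 exceeded that of Col4a5 by 0.46, that of Col6a1 exceeded that of Col6a2 by 0.25, and that of Col8a1 was below that of Col8a2 (difference −0.36). Each had a two-sided exact permutation p of 0.1, the smallest that 3 against 3 arrays allow, and an adjusted p of 0.433 over the pairs. All pairs were compared by the brightest probes. With the mean of their passing probes, the change was 0.14 for Col4a4 and −0.15 for Col6a2, against 0.36 and −0.29 by the brightest. For Col1a1 and Col1a2 the difference was −0.03 (exact permutation p = 0.6), and for Col4a5 and Col4a6 it was 0.01 (exact permutation p = 0.9).

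Probes of 1 chain could be compared for 12 chains, and in 3 of them they differed in sign or by over 0.5. Besides Col4a4 these were Col14a1, at 0.09 by its brightest probe and −0.35 ± 0.24 by the other, and Col25a1, at −0.01 against 0.11 and −0.03. The other 25 chains had 1 probe past the filter and no such check.

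Genes that modify, cut, bind or regulate collagen followed. Over all features, 2.66% were lower and 3.04% higher at an unadjusted p under 0.05, and 4.27% and 8.08% did not overlap on these sides. Of the enzymes and chaperones that modify and fold the chains, 20 of 21 were tested, 13 below 0 and 7 above, with a median log2 change of −0.07, 0 past the adjusted threshold by limma, and 2 lower and 0 higher at an unadjusted p under 0.05. Those were Colgalt2, which adds galactose to hydroxylysine, at −0.21 ± 0.08, and Tmem38b, an ion channel of the endoplasmic reticulum, at −0.22 ± 0.09. The lysyl hydroxylase Plod2 was at −0.25 ± 0.11 with no overlap, and the prolyl hydroxylase P3h2 at −0.29 ± 0.17.

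Of the processing and cross-linking enzymes, 12 of 15 were tested, 8 below 0 and 4 above, with a median of −0.04 and 0 past the adjusted threshold by limma. At an unadjusted p under 0.05 there were 1 lower and 0 higher. Loxl4, a lysyl oxidase-like cross-linking enzyme, was at scaled signals of 0.152, 0.186 and 0.178 in knockout, against 0.228, 0.307 and 0.255 in wild type. Its groups were clearly apart, with a log2 change of −0.61 ± 0.14 (SE; limma adjusted p = 0.627). Pcolce, which enhances removal of the procollagen tail, was at −0.11 ± 0.06, Loxl1 at −0.13 ± 0.11 and the peroxidase Pxdn, which cross-links type IV collagen, at −0.06 ± 0.07.

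Proteases and their inhibitors had 13 of 14 members tested, 9 below 0 and 4 above, with a median of −0.01 and 0 past the adjusted threshold by limma. At an unadjusted p under 0.05 there were 3 lower and 0 higher. Mmp14, a membrane collagenase, was at scaled signals of 1.39, 1.31 and 1.36 in knockout, against 1.64, 1.62 and 1.64 in wild type, a log2 change of −0.27 ± 0.06 (SE; limma adjusted p = 0.614). Mmp13, the collagenase of bone and cartilage, was at 2.79, 2.43 and 2.72 in knockout, against 3.49, 3.29 and 4.30 in wild type, a log2 change of −0.48 ± 0.12 (SE; limma adjusted p = 0.681). In both, all knockout arrays were lower. The inhibitor Timp1 was at −0.27 ± 0.10, and its relative Timp4 at 0.24 ± 0.13.

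All 10 collagen receptors were tested, 7 below 0 and 3 above, with a median of −0.03. Of the transcription factors of collagen genes 12 of 14 were tested, 5 below 0 and 7 above, with a median of 0.01. In either list 0 members passed the adjusted threshold by limma and 0 were at an unadjusted p under 0.05. The integrin chains Itga2 and Itgb1 were at 0.25 ± 0.15 and −0.09 ± 0.08, the receptor kinase Ddr1 at −0.06 ± 0.07 and the platelet receptor Gp6 at −0.21 ± 0.29. Sox9 and Sox6, which drive Col2a1 in cartilage, were at −0.10 ± 0.08 and 0.06 ± 0.07, the tendon factor Scx at −0.13 ± 0.10 and Runx3 at 0.26 ± 0.29.

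Markers of the tissues that could be in the samples were read beside the chains, as log2 changes and as sums of scaled signal. By limma 0 members of these lists passed the adjusted threshold. The shares of all features beside the counts below are 2.66% lower and 3.04% higher at an unadjusted p under 0.05. Without overlap they are 4.27% and 8.08%. The sums add different probes and follow the brightest of them. Of 12 cochlear markers 11 were tested, 3 below 0 and 8 above, with a median change of 0.11, on the other side of 0 from the chains. At an unadjusted p under 0.05 there were 0 lower and 2 higher. Those were prestin (Slc26a5), the motor protein of outer hair cells, at 0.92 ± 0.25 (limma adjusted p = 0.695) with wild-type signals near the filter level, and oncomodulin (Ocm), their calcium-binding protein, at 0.33 ± 0.12. The strial potassium channel Kcnq1 was at 0.27 ± 0.11, also with no overlap, and Otos at 0.01 ± 0.07. The cochlear sums were 655 to 704 in knockout and 644 to 689 in wild type. Vestibular markers, 3 of 4 tested, were 1 below 0 and 2 above, with sums of 1.68 to 2.11 in knockout and 1.54 to 2.42 in wild type.

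Of 10 chondrocyte markers 9 were tested, 7 below 0 and 2 above, with a median change of −0.27. At an unadjusted p under 0.05 there were 4 lower and 2 higher, beside 2.66% and 3.04% of all features, so the list did not go one way. The lower ones were matrilin 1 (Matn1), a cartilage matrix protein, at −0.69 ± 0.14, Snorc at −0.72 ± 0.27, Epyc at −0.41 ± 0.10 and Chad at −0.31 ± 0.09. Matn1 and Snorc had the dimmest probes of the list, with scaled signals of 0.0889 to 0.169 and 0.0805 to 0.216. The higher ones were aggrecan (Acan), the main proteoglycan of cartilage, at 0.43 ± 0.08, and Ucma, a secreted cartilage protein, at 0.23 ± 0.07. Their sums, mostly the signal of the Ucma probe, were 99.5 to 108 in knockout and 96.1 to 103 in wild type. All 10 osteoblast and osteocyte markers were tested, 8 below 0 and 2 above, with 0 at an unadjusted p under 0.05. Their sums were 209 to 218 in knockout and 198 to 277 in wild type, where array 2 held the highest value.

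All 7 fibrocyte markers were tested, 6 below 0 and 1 above. Lumican (Lum) and fibromodulin (Fmod), proteoglycans that bind collagen fibres, had no overlap, at −0.26 ± 0.09 and −0.28 ± 0.14, the first of them at an unadjusted p under 0.05. The sums, mostly the signal of the Otos probe, were 670 to 736 in knockout and 696 to 743 in wild type. All 8 vessel markers were tested, 7 below 0 and 1 above, with 2 lower and 0 higher at an unadjusted p under 0.05, the endothelial receptor Tek and the endothelial adhesion molecule Pecam1, both named beside Col4a1. The vessel sums were 12.0 to 12.6 in knockout and 12.5 to 12.8 in wild type.

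Adipocyte markers, 5 of 6 tested, were 4 below 0 and 1 above, with 2 lower and 0 higher at an unadjusted p under 0.05. Those were the lipid droplet proteins Plin1 at −0.81 ± 0.26 and Cidec at −0.73 ± 0.23, and the sums were 8.05 to 9.88 in knockout and 8.15 to 11.1 in wild type. Skeletal muscle markers, 5 of 8 tested, were 0 below 0 and 5 above, with overlapping groups. Their sums were 0.314 to 13.9 in knockout, led by array 2, and 0.506 to 2.96 in wild type. Schwann cell markers, 3 of 5 tested, were 3 below 0 and 0 above, with sums of 42.9 to 46.8 in knockout and 42.4 to 57.1 in wild type. Red cell precursor markers, 5 of 6 tested, were 2 below 0 and 3 above, with sums of 1303 to 1325 in knockout and 1126 to 1357 in wild type. The part of these tissues in the changes of the chains was not tested.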

How the data were processed

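Gene expression was measured on 1-colour Agilent arrays (Cy3) in 3 Fabp7 knockout and 3 wild-type cochlear samples, and per the submitters' processing notes the scans were read with Agilent Feature Extraction 10.7. For every array the authors deposited a linear raw intensity for each probe, without scaling between arrays, per the file headers and the values. The background treatment is not given in these sources, and columns for background, saturation, slide or scan were not used here. The authors also deposited a log2 matrix of the same 55676 probes, equal on all 6 arrays to the log2 raw signal minus 1 constant, to within 1e-05. The constants lie near each array's 75th percentile. The array number limits the precision.

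Values analysed here are log2 raw signals from which each array's 75th percentile (log2) was subtracted. Gene names came from the platform annotation (30625 probes with 1 name, 25051 with none, 0 with several), with 30331 updated through gene IDs of RefSeq GRCm38.p6. A probe was kept above the 40th percentile on at least 3 of 6 arrays (33484 probes), and the brightest passing probe stood for a gene, which left 16143 named genes and 11046 unnamed probes. Levels were not compared between genes, and marker sums add probes of different brightness. The genotype difference was fitted by limma 3.58.1 (R 4.3.3; lmFit, then eBayes, no covariates), adjusted by Benjamini-Hochberg over all features at 0.05, and the fit was tested on simulated data. SE is that of the fit, and every change is knockout minus wild type. Each array is a pool of mice. The limma p-values set the group difference against the spread between these pools, moderated over all features.

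The collagen chains and the gene lists were chosen with earlier results of these data known. Values on every array were given for the 12 chains with the lowest unadjusted p and for types I, II, IV, IX and XI (no probe of type X passed), and 4 members of each other list with the lowest unadjusted p were named. Further chains, the partner pairs and the cell type markers named were singled out after their values were seen. Basement membrane here means type IV chains only. Same-numbered arrays did not deviate together (correlations −0.13, −0.04 and −0.14 over features), and the main fit used no pairing. With 3 arrays per group, these correlations cannot show that same-numbered arrays shared no handling. Array 1 had the lowest array weight of its group, 0.537 in knockout and 0.411 in wild type. Alternatives covered scaling, source, filter, probes, spread, the block and each array left out.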

Additional observations from a re-analysis of the deposited data

How the results depend on the processing

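No collagen chain passed the adjusted threshold under any of 20 other settings, where the lowest adjusted p was 0.22 (Col4a1 with array weights). The number of chains below 0 was 24 to 34, the first without knockout array 1 and wild-type array 1 together (a setting chosen after seeing the data), the second with no filter, where 44 chains were tested. Chains at an unadjusted p under 0.05 numbered 2 with the mean of passing probes and 3 to 6 when single arrays were left out. The median change was −0.122 to −0.051 with single arrays left out and −0.044 without both arrays 1, where the type IV median was 0.0071. The cause was not tested. The median of all features was 0.02 to 0.04 under the scaling alternatives. The replicate block changed no call (median −0.09, 0 chains called).

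The features called over all numbered 1 with quantile normalization, with 50 added to each signal, with signals raised to the 40th percentile, among named genes only, with trend and robust, and without both arrays 1. Each time that feature was Fabp7, whose knockout signals are all under the 40th percentile and whose size follows the floor, at −8.43, −5.04, −6.57, −8.42, −8.42 and −8.74. With the stricter filter at the 60th percentile and with array weights there were 3, Fabp7 (−8.42 and −8.64), Dupd1 and Slco1b2. With single arrays left out the number was 0 to 2, and Fabp7 lay between −8.95 and −8.15 without a knockout array. It had no value without a wild-type array or with a filter on all 6 arrays, which it did not pass. In the main setting 0 were called.

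Of 736 changes of single chains, 703 kept their direction, all of them for 22 chains. The cause of the reversed ones was not tested. Without both arrays 1, Col4a3 was at 0.151, Col4a5 0.0396, Col9a3 0.102, Col15a1 −0.008, Col16a1 0.0283, Col20a1 −0.0165, Col23a1 0.114, Col25a1 0.0565 and Col26a1 0.041. With array weights, Col9a3 was at 0.054, Col15a1 −0.0956, Col20a1 −0.0548, Col23a1 0.0097, Col24a1 0.0171 and Col25a1 0.0064. The mean of probes gave Col14a1 −0.128 and Col25a1 0.0229, and 50 added to each signal gave Col4a3 0.0248. With single arrays left out, the extremes were Col4a3 −0.294 and 0.173, Col5a1 −0.0729 and 0.0304, Col5a2 −0.12 and 0.0372, Col9a3 −0.178 and 0.0406, Col12a1 −0.0016 and 0.144, Col14a1 −0.0394 and 0.257, Col20a1 −0.0812 and 0.104, Col22a1 −0.24 and 0.11, Col23a1 −0.205 and 0.0061 and Col25a1 −0.0767 and 0.0686. Raising signals to the 40th percentile left Col13a1 at −0.74 and Col4a3 at −0.07, but moved Col15a1 from 0.25 to 0.02.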
